A study of Mus musculus with 10 samples.

Results

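Long-chain acyl-CoA synthetases and fatty acid transport proteins catalyse the same reaction, in which a fatty acid is joined to coenzyme A at the cost of ATP. The product, an acyl-CoA, is trapped in the cell and can enter triglycerides, phospholipids, cholesterol esters or oxidation, and the isozymes differ in their membranes, their tissues and the fatty acids they prefer. The fatty acid transport proteins, the Slc27a family, activate very long chain fatty acids in addition and are known for their part in the uptake of fatty acids across the plasma membrane. In liver, these enzymes stand between fatty acid supply and lipid storage.

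The genes described here were 8 listed members of these families, Acsl1, Acsl3, Acsl4, Acsl5, Acsl6, Slc27a1, Slc27a2 and Slc27a4. A gene was measured through the array feature whose platform annotation gave its symbol and no other. This rule gave 6 of the 8 a value, among 19938 genes tested in all. No feature carried the symbol Acsl1, a main synthetase of mouse liver, and the feature of Acsl3, a synthetase of lipid droplets, also carried a second symbol, so that both are not analysed here. Each of the other 6 had 1 feature, and no filter on low values was applied to them.

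Liver RNA came from 5 male C57BL/6J mice given an adenovirus encoding the histone demethylase Phf2 and from 5 given an adenovirus encoding GFP, a fluorescent protein that served as control. The mice were injected in the tail vein at 8 weeks of age and studied fed, 3 weeks later. The virus was therefore present in both groups, and uninjected mice are not part of these data. The sources used here do not give the promoter of the adenoviral transgenes. Each liver was read on 1 Affymetrix Gene ST array, and values are on the log2 scale after RMA, a method that corrects background, brings arrays to a common distribution and summarises the probes of a feature. On this scale a difference of 1 is a doubling, and a feature's values may be compared between livers but not with those of another feature. The feature of Phf2 averaged 6.39 ± 0.12 on arrays labelled Phf2 and 6.45 ± 0.11 on arrays labelled GFP (SD, n = 5 each), a log2 fold change of -0.05 (standard error, SE, 0.08 and adjusted p = 0.751). The feature thus showed no rise on arrays labelled Phf2, and why was not tested. The part of the transcript it reads is not stated. The paper describes cloning Phf2 from cDNA of a cell line, and does not state which Phf2 sequence the adenovirus carried. Whether the feature can read the adenoviral transcript is therefore not known. It gives no support to the labels, and groups are named by their labels throughout. Array medians lay between 5.06 and 5.18. The mean of 7 hepatocyte markers, among them albumin, lay between 12.42 and 12.55 on Phf2 arrays and between 12.53 and 12.65 on GFP arrays. Markers of pancreatic acinar cells varied widely among arrays of both groups, with means of 6.12 to 10.81 on Phf2 arrays and 6.34 to 12.28 on GFP arrays.

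Of the 6 members, Acsl5 and Slc27a4 rose in Phf2 livers, Slc27a2 fell, and Acsl4, Acsl6 and Slc27a1 did not pass the test. The test was limma, with p-values adjusted over all 19938 genes and a threshold of 0.05. By this rule 9.67% of all genes were called, 5.43% higher and 4.24% lower in Phf2 livers, and 3 of the 6 members were. The members and the gene lists below were chosen with earlier results of these data known. Counts within them are therefore descriptions, and no set was tested. The changes were small, and none reached 1.5-fold. Of 21 alternatives described below, the call was kept under 20 for Acsl5, 17 for Slc27a2 and only 5 for Slc27a4. The median log2 fold change of the 6 members was -0.08 (-0.0149 over all genes), and the median of its size was 0.16 (0.09 over all genes). Among the genes called, 22.7% had a smaller change than Acsl5, 7.83% a smaller one than Slc27a4 and 2.13% a smaller one than Slc27a2.

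**Figure D1:**
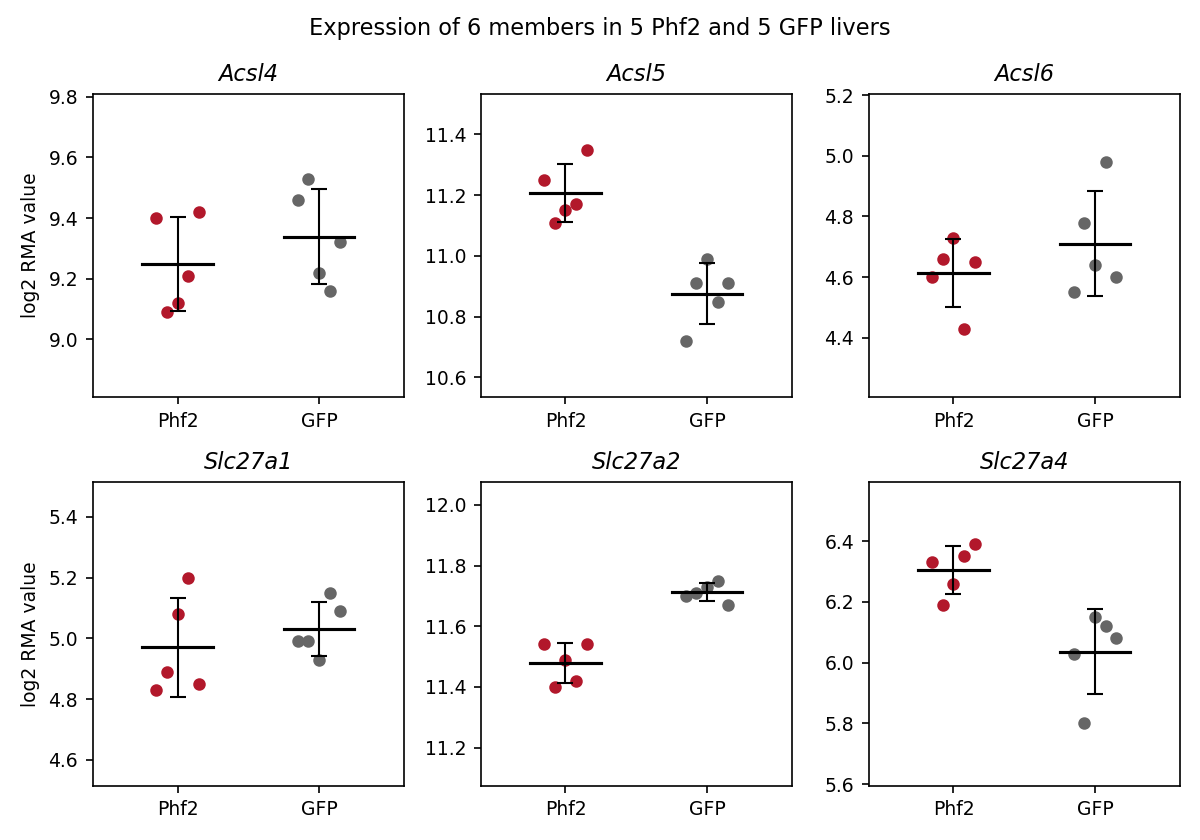
Log2 RMA value (vertical axis, each panel spanning 1 unit) of 6 members in each of 5 Phf2 livers (red) and 5 GFP livers (grey), with long lines at the means and bars for the SD. The Phf2 livers lie above all GFP livers for Acsl5 (lowest Phf2 value 11.11) and Slc27a4 (lowest 6.19), and below them for Slc27a2 (highest 11.54), and the groups overlap for Acsl4, Acsl6 and Slc27a1.

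The sequences before the starts of the 3 called genes are shown because these are the members that moved, Acsl5 and Slc27a4 upwards and Slc27a2 downwards. They are the 250 bases before the start given by RefSeq (assembly GRCm38.p6), written 5′ to 3′ on the strand of the gene, which is the plus strand for all of them. Capitals mark matches, on either strand, to the nuclear receptor half-site AGGTCA or to the GC box GGGCGG.
Acsl5 (chr19:55253119-55253368): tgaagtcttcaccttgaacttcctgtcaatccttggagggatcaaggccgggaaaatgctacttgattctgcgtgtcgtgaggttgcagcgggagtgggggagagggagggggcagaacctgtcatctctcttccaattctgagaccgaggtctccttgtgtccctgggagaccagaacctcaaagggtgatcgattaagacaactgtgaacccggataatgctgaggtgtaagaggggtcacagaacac
Slc27a4 (chr2:29802384-29802633): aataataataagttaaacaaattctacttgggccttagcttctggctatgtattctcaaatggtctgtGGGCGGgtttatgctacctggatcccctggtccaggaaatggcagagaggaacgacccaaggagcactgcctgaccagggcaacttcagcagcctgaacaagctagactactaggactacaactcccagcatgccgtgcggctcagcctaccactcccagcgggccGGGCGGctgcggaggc
Slc27a2 (chr2:126552774-126553023): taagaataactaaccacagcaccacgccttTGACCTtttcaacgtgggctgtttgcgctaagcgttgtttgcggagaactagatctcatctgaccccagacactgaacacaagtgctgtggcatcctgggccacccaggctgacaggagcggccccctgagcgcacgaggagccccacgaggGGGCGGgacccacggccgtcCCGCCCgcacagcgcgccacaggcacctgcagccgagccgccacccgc

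The window of Slc27a2 held 1 half-site, at 220 bases before the start, and 2 GC boxes, and that of Slc27a4 held 2 GC boxes. The window of Acsl5 held no match to any motif searched. None of these windows held an E-box (CACGTG), an antioxidant response element core (TGACNNNGC) or a direct repeat of the half-site with 1 base between. All motifs were searched on both strands, and the direct repeat contains the half-site, so that a match to it also counts for the half-site. The 6 members had 10 windows, because Acsl6 and Slc27a1 have several annotated starts, so the windows are not separate genes. Of the 10 windows, 8 held a GC box, 2 a half-site, 1 an antioxidant response element core (Acsl6) and 1 an E-box (Slc27a1). The direct repeat was in 0. Among all 32851 windows of the same length, 32.7% held a GC box, 14.0% a half-site, 10.2% an antioxidant response element core, 6.02% an E-box and 0.0335% the direct repeat. A match in these letters is a description of the window and does not show that a factor binds there.

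Acsl5 is a synthetase of the endoplasmic reticulum and mitochondria that is well expressed in liver and intestine and is linked there to triglyceride synthesis. It read 11.25, 11.11, 11.15, 11.17 and 11.35 in the 5 Phf2 livers, against 10.72, 10.91, 10.99, 10.85 and 10.91 in the 5 GFP livers. All Phf2 livers lay above all GFP livers, with a gap of 0.13 between the nearest. The mean was 11.21 ± 0.10 in Phf2 livers and 10.88 ± 0.10 in GFP livers (SD, n = 5 each), a log2 fold change of 0.33 (SE 0.07 and adjusted p = 0.00881 from limma). This is 1.26-fold, with a 95% interval of 1.13 to 1.4. A two-sided exact permutation test gave p = 0.00794, the smallest that 5 against 5 livers allow, and groups without overlap were seen for 9.08% of all genes, with the Phf2 livers above in 4.71% and below in 4.36%. Deviations of Acsl5 from its group means ran against those of the pancreatic markers over the 10 arrays (Pearson r = -0.83), the strongest such correlation of any member with any set of cell markers. They also ran against bile duct (r = -0.73) and adipocyte markers (r = -0.72). For the pancreatic markers, r was -0.69 for Slc27a2, -0.47 for Slc27a4, -0.35 for Acsl6, -0.12 for Acsl4 and 0.16 for Slc27a1. With other sets, r reached 0.71 for Slc27a1 with T and NK cell markers and -0.69 for Acsl4 with neutrophil markers. With the mean of the pancreatic markers as a covariate, the log2 fold change of Acsl5 was 0.33 (adjusted p = 0.00377 from limma). What lies behind these correlations was not tested.

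Acsl4 prefers arachidonate and other polyunsaturated fatty acids, and it is known for its part in ferroptosis, a cell death by lipid peroxidation. It read 9.40, 9.09, 9.12, 9.21 and 9.42 in Phf2 livers, against 9.46, 9.53, 9.22, 9.16 and 9.32 in GFP livers. The groups overlapped, although 2 of the Phf2 livers lay below all GFP livers. The log2 fold change was -0.09 (SE 0.09 and adjusted p = 0.631 from limma), and its 95% interval of -0.29 to 0.11 leaves room for a change in either direction. The spread within a group was larger for Acsl4, with an SD of 0.16 in Phf2 livers and 0.15 in GFP livers, than for Acsl5.

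Acsl6, the synthetase of brain that favours docosahexaenoate, read 4.6, 4.66, 4.73, 4.43 and 4.65 in Phf2 livers, against 4.55, 4.78, 4.64, 4.98 and 4.6 in GFP livers. All 10 values lay below the median of all features of their array, where signal may limit what can be seen, and the files used here hold no call of detection. The groups overlapped, with a log2 fold change of -0.10 (SE 0.09 and adjusted p = 0.596 from limma, 95% interval -0.29 to 0.10).

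Slc27a2, or FATP2, takes up fatty acids in hepatocytes and activates very long chain fatty acids, and it is a transport protein of liver and kidney. It read 11.54, 11.40, 11.49, 11.42 and 11.54 in Phf2 livers, against 11.70, 11.71, 11.73, 11.75 and 11.67 in GFP livers. Every Phf2 liver lay below every GFP liver, with a gap of 0.13, and the GFP livers stayed within a narrow range. The mean was 11.48 ± 0.06 in Phf2 livers and 11.71 ± 0.03 in GFP livers (SD, n = 5 each), a log2 fold change of -0.23 (SE 0.05 and adjusted p = 0.0182 from limma). The ratio of Phf2 to GFP livers was 0.852, with a 95% interval of 0.785 to 0.925 (two-sided exact permutation test, p = 0.00794). The call was lost without Phf2 replicate 2 (adjusted p = 0.0553) or 4 (adjusted p = 0.0544), where the log2 fold change was -0.21 and -0.22.

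Slc27a4, or FATP4, is the fatty acid transport protein best known from intestine and skin. It read 6.33, 6.19, 6.26, 6.35 and 6.39 in Phf2 livers, against 6.03, 5.80, 6.15, 6.12 and 6.08 in GFP livers. All Phf2 livers lay above all GFP livers, but by a gap of 0.04, and GFP replicate 2 was the lowest of them. The mean was 6.31 ± 0.08 in Phf2 livers and 6.04 ± 0.14 in GFP livers (SD, n = 5 each), a log2 fold change of 0.27 (SE 0.08 and adjusted p = 0.0440 from limma) or 1.20-fold (95% interval 1.07 to 1.35). The two-sided exact permutation test gave p = 0.00794. This call stood close to the threshold and was kept without GFP replicate 3 (adjusted p = 0.0382) but lost without any other single array (adjusted p from 0.0524 to 0.105), while the log2 fold change stayed between 0.21 and 0.30. It was also lost when arrays were centred on their medians (log2 fold change 0.25, adjusted p = 0.0783).

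Slc27a1, or FATP1, the transport protein of muscle and fat that responds to insulin, read 4.83, 4.89, 5.08, 5.20 and 4.85 in Phf2 livers, against 4.99, 4.99, 4.93, 5.15 and 5.09 in GFP livers. The groups overlapped, and the highest and the lowest value both came from Phf2 livers. The log2 fold change was -0.06 (SE 0.08 and adjusted p = 0.739 from limma, 95% interval -0.24 to 0.12), and 7 of the 10 values lay below the median of their array.

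**Figure D2:**
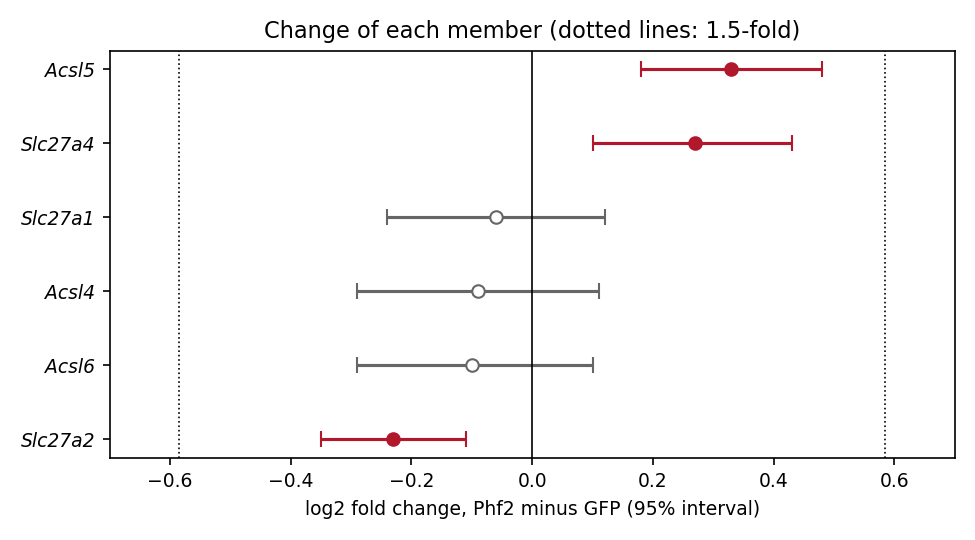
Log2 fold change (horizontal axis, Phf2 minus GFP) of 6 members with 95% intervals from limma. Filled red points mark members called at an adjusted p of 0.05 and open grey points the others, and all intervals lie within the dotted lines that mark 1.5-fold, from Acsl5 (0.33) at the top to Slc27a2 (-0.23) at the bottom.

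Set side by side, the log2 fold changes of Slc27a4 and Slc27a2 lay 0.50 apart and those of Acsl5 and Acsl4 lay 0.42 apart. These 2 pairs were chosen after the values were seen, so their distances are a description with no test. They ran from 0.44 to 0.52 for Slc27a4 and Slc27a2 and from 0.36 to 0.48 for Acsl5 and Acsl4 when each array was left out in turn. In the plots of single livers, Phf2 replicates 1 and 5 had the highest values of the Phf2 group for Acsl4, Acsl5 and Slc27a2. In these replicates the mean of the T and NK cell markers was 5.34 and 5.28, against 5.42 to 5.98 in the other Phf2 livers. The mean of the pancreatic markers was 6.12 and 6.34, against 8.97 to 10.81. Macrophage and Kupffer cell, neutrophil, endothelial, stellate cell and bile duct markers also had their lowest Phf2 means in these replicates. Hepatocyte, B cell, adipocyte and erythroid markers did not. A link with the values of the members was not tested.

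The genes whose values ran most like a called member over the 10 arrays were named by Pearson correlation among 18712 genes, as a description. Slc27a2 ran with Fetub (r = 0.9865), a fetuin secreted by liver, and Clcc1 (r = 0.9778), a chloride channel of the endoplasmic reticulum. Acsl5 ran with Psmd12 (r = 0.9664), a subunit of the proteasome, and Btg2 (r = 0.9622), an antiproliferative gene. Slc27a4 ran with Krcc1 (r = 0.9608) and Med15 (r = 0.9583), a subunit of the Mediator complex. A correlation above 0.9 was reached by 268 genes for Slc27a2, 66 for Acsl5 and 18 for Slc27a4. The 10 arrays share the difference between groups, which raises such correlations. Among the members, Acsl5 and Slc27a2 ran apart over all arrays (r = -0.73) but together once the group means were taken off (r = 0.58).

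Other enzymes that make acyl-CoA fell or did not pass the limma test. Of 16 further acyl-CoA synthetases, 3 were lower and 0 were higher in Phf2 livers (limma, adjusted p under 0.05), and the median log2 fold change was 0.00. Before adjustment 5 were lower and 1 was higher at p under 0.05, and 0 were higher under every alternative run. The count of lower genes ran from 2 to 4 with 1 array left out. Acsm1, which activates medium chain fatty acids in mitochondria, read 9.23, 8.94, 8.80, 8.59 and 9.18 in Phf2 livers, against 9.92, 9.95, 9.76, 9.69 and 9.84 in GFP livers. Its log2 fold change was -0.88 (SE 0.11 and adjusted p = 0.000443), and the groups did not overlap. Its relative Acsm5 had a log2 fold change of -0.37 (SE 0.09 and adjusted p = 0.0260), and 1 Phf2 liver lay within the GFP range. Slc27a5, or FATP5, the bile acyl-CoA synthetase of liver, averaged 10.48 ± 0.18 in Phf2 livers and 11.04 ± 0.05 in GFP livers (SD, n = 5 each), with an adjusted p of 0.00107. The remaining transport proteins, Slc27a3 and Slc27a6, had log2 fold changes of -0.02 (adjusted p = 0.856) and -0.11 (adjusted p = 0.558).

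Thioesterases act against acyl-CoA synthetases by splitting acyl-CoA into a fatty acid and coenzyme A. Of 15 listed, 8 were higher in Phf2 livers, 1 was lower and 6 were not called. The median log2 fold change of this list was 0.33, and p before adjustment was under 0.05 for 10 higher genes and 1 lower gene. The largest rise was in Acot3, a peroxisomal thioesterase, at 5.89 ± 0.11 in Phf2 livers and 5.12 ± 0.14 in GFP livers (SD, n = 5 each), a log2 fold change of 0.77 (SE 0.08 and adjusted p = 9.36e-05 from limma). Acot9 of mitochondria had 0.72 (SE 0.21 and adjusted p = 0.0470), with a gap of only 0.00 between the nearest livers of the groups. Acot11 had 0.69 (SE 0.14 and adjusted p = 0.00874). Acot12, the acetyl-CoA thioesterase of liver cytosol, was the lower one, with -0.32 (SE 0.08 and adjusted p = 0.0179), a call lost without Phf2 replicate 2. Acot1 to Acot6 are close copies of each other, and a feature may read more than 1 of them. Among the higher genes, Acot5 averaged 3.56 in Phf2 livers and 3.24 in GFP livers. These means lay below the array medians, where signal may limit what can be seen. Of the 10 values of each gene, 2 of Acot3 and 3 of Acot11 also lay below the median of their array. The count of higher genes was 5 without GFP replicate 1, GFP replicate 2, Phf2 replicate 3 or Phf2 replicate 4, and also when all features were tested.

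Among 15 proteins that take up or bind fatty acids and acyl-CoA, 3 were higher, 1 was lower and 11 were not called, and the median log2 fold change was 0.01. At an unadjusted p under 0.05 there were 3 higher and 2 lower. The higher ones were the fatty acid translocase Cd36, at 10.62 ± 0.13 in Phf2 livers and 8.64 ± 0.37 in GFP livers (SD, n = 5 each), and the binding proteins Fabp4, with a log2 fold change of 1.5 (SE 0.12 and adjusted p = 1.66e-05), and Fabp5, with 0.90 (SE 0.21 and adjusted p = 0.0166). Fabp5 overlapped between groups through GFP replicate 2, at 9.91. The lower one was Acbd4, which binds acyl-CoA, with -0.26 (SE 0.07 and adjusted p = 0.0457), a call lost without GFP replicates 1, 2, 4 or 5 and without Phf2 replicates 2, 3, 4 or 5.

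Of 11 genes that make or break down coenzyme A, the other substrate of these enzymes, 2 were higher, 1 was lower and 8 were not called, and the median log2 fold change was 0.14. Before adjustment, 6 were higher and 1 was lower at p under 0.05. Vnn1, the pantetheinase that recycles pantothenate, read 8.34, 8.44, 8.85, 8.53 and 8.17 in Phf2 livers, against 6.72, 6.40, 6.76, 6.66 and 6.59 in GFP livers. Its log2 fold change was 1.84 (SE 0.11 and adjusted p = 2.08e-06 from limma), without overlap between groups. Vnn3, its relative, had 0.46 (SE 0.06 and adjusted p = 0.000567). Nudt7, which cleaves coenzyme A and acyl-CoA in peroxisomes, averaged 10.25 ± 0.54 in Phf2 livers and 11.41 ± 0.09 in GFP livers (SD, n = 5 each), a log2 fold change of -1.16 (SE 0.20 and adjusted p = 0.00340). Phf2 replicates 1 and 5 lay nearest to the GFP livers, at 10.79 and 10.85.

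**Figure D3:**
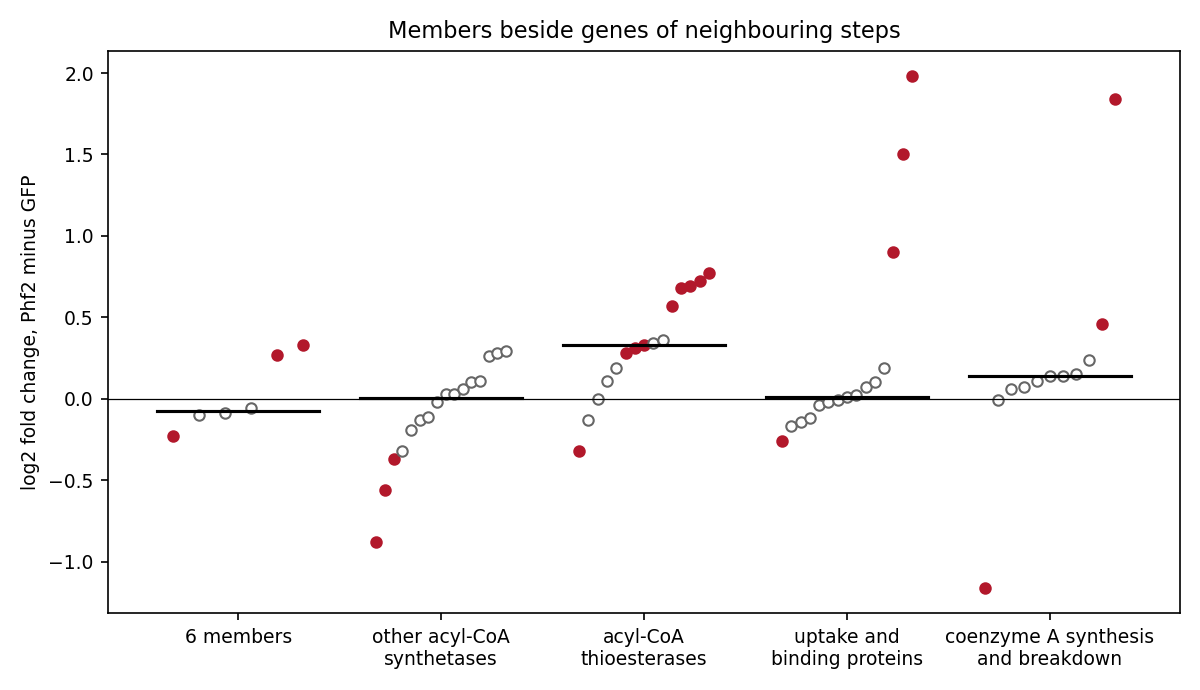
Log2 fold change (vertical axis, Phf2 minus GFP) of the 6 members and of 4 lists of genes at neighbouring steps, each point a gene. Genes called by limma are filled in red, the others are open, and horizontal bars mark medians, from -0.08 for the members to 0.33 for the thioesterases.

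Synthetases and transport proteins are also made by other cells of liver, and in whole tissue fewer cells of a type and less RNA per cell cannot be told apart. Of 7 T and NK cell markers, 5 were higher in Phf2 livers, and their mean lay between 5.28 and 5.98 on Phf2 arrays and between 4.71 and 5.05 on GFP arrays, without overlap. Of 10 macrophage and Kupffer cell markers, 2 were higher and 3 were lower, with means of 7.76 to 8.10 on Phf2 arrays and 7.67 to 8.45 on GFP arrays. Of 3 erythroid markers measured, Alas2 was lower (log2 fold change -0.89), whereas Epb42 (-0.06) and Rhag (-0.13) were not called. The mean of the 3 lay between 4.70 and 4.96 on Phf2 arrays and between 5.21 and 5.24 on GFP arrays, a difference that came mostly from Alas2. Of 6 endothelial markers 1 was higher, and of 7 hepatocyte markers 2 were lower. The 3 B cell, 4 neutrophil, 6 stellate cell, 4 bile duct, 4 adipocyte and 7 pancreatic acinar markers had 0 genes past the adjusted threshold of limma. Before adjustment, p was under 0.05 for 4 of the stellate cell markers, 2 of the neutrophil markers, 1 of the bile duct markers and 0 of the other 3 lists. The part of these cells in the changes of the members was not tested.

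**Figure D4:**
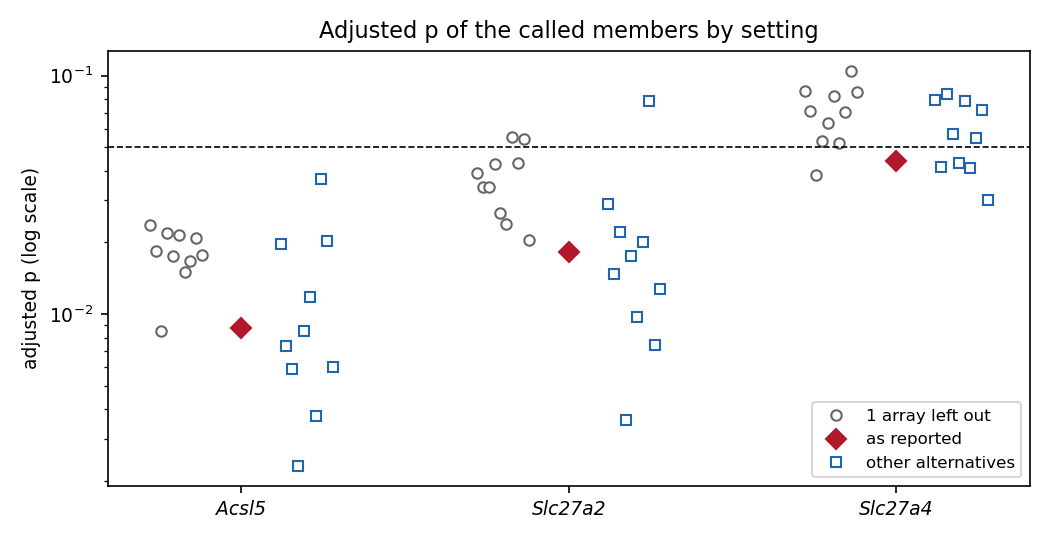
Adjusted p (vertical axis, log scale, from limma except for 1 alternative with the test of the methods) of the 3 called members as reported (red diamonds), with 1 of the 10 arrays left out (grey circles) and under the other alternatives (blue squares), with the threshold of 0.05 dashed. Acsl5 stays below the line throughout, between 0.00232 and 0.0368, whereas Slc27a4 lies on both sides of it, between 0.0300 and 0.105.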

How the data were processed

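RNA of 10 livers was measured on 1 array each. For 35556 features the authors deposited log2 values that they had made by RMA, and RMA and Partek stand in the submitters' processing notes without versions. The methods name a human array, whereas the feature numbers match a mouse Gene ST annotation. Of all features, 21789 had 1 symbol and were used, which gave 19938 genes, and a gene with several features was read through the one of highest mean. Promoter sequences came from RefSeq (GRCm38.p6). The 6 members analysed all had a window.

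Phf2 arrays were compared with GFP arrays by limma 3.58.1 in R 4.3.3 with no covariate, adjusting p-values over all genes after Benjamini and Hochberg, and single values were compared by exact permutation. A log2 fold change is Phf2 minus GFP. The fit was also run on simulated data with changes of 1.5-fold to 8-fold, and 43 of 50 genes changed 1.5-fold were recovered. Changes as small as those of the members were not simulated. Named genes were all members, up to 3 called genes in each direction of 4 pathway lists, and the 2 genes most correlated with each called member. The 4 pathway lists, the 11 marker lists and the members were chosen with earlier results of these data known. The alternatives were the methods' t-test, other variance models, array weights, a filter on dim features, other scalings, other choices of features, the replicate number as a block, pancreatic markers as a covariate, the study's 1.5-fold threshold and leaving out each array. Precision is limited by how many arrays there are, and the labels call them biological replicates.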

Additional observations from a re-analysis of the deposited data

Results flagged for a closer look

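GFP replicate 1 stood apart for Slc27a5, the bile acyl-CoA synthetase related to the members, at 11.12 against 11.00 to 11.03 in the other GFP livers, a gap that took 0.781 of the range of the group. Among the 6 members no liver stood apart from its group in this way. In all, 42 groups of 5 values were examined, those of the members, the named pathway genes and Phf2, and chance alone marks about 1 in 20.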

How the results depend on the processing

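The sign of all 6 members was kept under the alternatives that could be run. Acsl6 and Slc27a1 had no value without dim features, and no member had a second feature. At the study's thresholds, 1.5-fold with p below 0.05 before adjustment, no member was called, so that 0 were higher and 0 lower, and Acsl5 (0.33), Slc27a4 (0.27) and Slc27a2 (-0.23) fell short of the fold. Slc27a4 was not called over all features (log2 fold change 0.27, adjusted p = 0.0791), after a further quantile normalization (0.23, 0.0837), with an intensity trend and robust prior (0.27, 0.0568), under median centring (0.25, 0.0783), by the methods' t-test (0.27, 0.0721) or with the replicate block (0.27, 0.0548), which left 1 member higher in each case. With 1 array left out, Slc27a4 ran from 0.21 to 0.30, Acsl5 from 0.29 to 0.36 and Slc27a2 from -0.25 to -0.21, with 1 to 2 members higher and 0 to 1 lower. The replicate block called 0 members lower, with Slc27a2 at -0.23 (adjusted p = 0.0786), and 1514 genes in all against 1929 without it. Replicate numbers did not pair the arrays, since deviations of arrays with the same number correlated at -0.29 to -0.04 and 0 of 10 arrays matched its own number best.

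The count of higher thioesterases was 4 at the study's thresholds, 5 over all features and 4 by the methods' t-test, and 5 to 8 with 1 array left out. The lower thioesterase was lost (0) at the study's thresholds and with the replicate block, and 0 to 1 were lower with 1 array left out. The lower binding protein, Acbd4, was lost (0) at the study's thresholds, over all features, with the intensity trend, the pancreatic covariate, the replicate block and the methods' t-test, and 0 to 1 were lower with 1 array left out. At the study's thresholds 1 further synthetase was lower and 1 gene of coenzyme A metabolism was higher. Over all features, by the methods' t-test and with the replicate block, 2 further synthetases were lower. Under median centring and with array weights there were 4. Median centring and the further quantile normalization moved the share of higher genes among all genes called to 46.4% and 49.0%, against 56.1%, and the methods' t-test called 1310 genes. Features with low values, such as those of Acsl6 and Slc27a1, limit what can be seen.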
